A study of Mus musculus with 21 samples.

Results

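The genes that encode the receptors for glutamate and the subunits that travel with them were followed through the forebrains of mice with human APOE, with and without mutant tau. The set held 32 genes chosen by symbol: 4 AMPA receptor subunits, 5 kainate receptor subunits, 7 NMDA receptor subunits, 1 delta receptor, 7 metabotropic receptors and 8 auxiliary subunits of AMPA receptors. All 32 symbols matched 1 Ensembl gene each among the 55401 genes of the count table. RNA was measured in 21 forebrains. The parental groups E2H, E3H and E4H (n = 3 each) were homozygous for human APOE2, APOE3 or APOE4 in place of mouse Apoe, were kept on C57BL6 and were 9 to 10 months old. The PS19 groups (n = 4 each, PS/E2H, PS/E3H, PS/E4H) carried the same homozygous alleles plus 1 copy of the P301S human tau transgene of line PS19, which is driven by the mouse prion promoter and was kept on B6/C3H before the backcross to each APOE line. These mice were collected once their hindlimbs were paralyzed, so the transgene, paralysis, age at death and the C3H share of the background cannot be told apart. The mice were male except for 1 E4H, 1 PS/E2H and 2 PS/E4H females, which the labels do not identify, so the part of sex in any difference was not tested.

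Glutamate is the main excitatory transmitter of the forebrain. AMPA and kainate receptors are fast cation channels of 4 subunits, NMDA receptors pair the obligatory GluN1 subunit with GluN2 or GluN3 subunits and pass calcium once depolarized, and metabotropic receptors act through G proteins. TARPs, the products of Cacng2, Cacng3, Cacng4, Cacng5, Cacng7 and Cacng8, and cornichons bind AMPA receptors and shape their trafficking and gating. Most of these receptors sit on neurons, but group II and group I metabotropic receptors are also made by astrocytes, and RNA from a whole forebrain cannot tell fewer cells of a type from less RNA per cell.

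Libraries held 59265459 to 75932183 counts, with 7.25% to 10.9% from mitochondrial genes. The E2H 2 library stood apart from its group, with the most mitochondrial counts and the fewest genes detected (24438). PS/E3H 1 had the lowest Gfap (968 CPM, which is counts scaled to the normalized library size) and C1qa (100.2 CPM) of the 12 PS19 mice. Other glial markers were lower elsewhere, such as Cx3cr1 (35.5 CPM in PS/E2H 4, 59.3 CPM in PS/E3H 1) and Aqp4 (124 and 168 CPM). A median was taken over the tested members of log2 CPM, each centred on its mean over all mice. It was 0.0766 in PS/E3H 1 and below 0 in every other PS19 mouse. Values without E2H 2 and PS/E3H 1 are given beside the results they touch most. Depth also followed the groups: 7 of 9 parental but 3 of 12 PS19 libraries were on the upper side of a gap in the totals between 63751715 and 66983058 counts. The labels named separate mice but no litters, so the p-values measure the spread between these mice.

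Levels were compared between genes as FPKM, which allows for transcript length. Cnih2, a cornichon, was the most abundant of the 32 genes at 87.6 ± 17.6 FPKM (SD, n = 21). Gria1 (GluA1) followed at 59.2 ± 6.12 FPKM and Cacng7 (TARP gamma-7) at 58.0 ± 4.32 FPKM, and these neighbours did not differ beyond their spread. Grin1, the obligatory NMDA receptor subunit, stood at 37.4 ± 3.53 FPKM. Grik5 (25.2 ± 2.99 FPKM), Cacng3 (25.1 ± 5.27 FPKM) and Gria2 (24.8 ± 4.79 FPKM) formed a tier that overlapped throughout. The lowest members were Grin3b at 0.0800 ± 0.0411 FPKM and Grm6, the receptor of retinal bipolar cells, which had 0 to 4 counts per library and was the only member left out of the tests for low counts. Thus 31 members were tested.

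**Figure D1:**
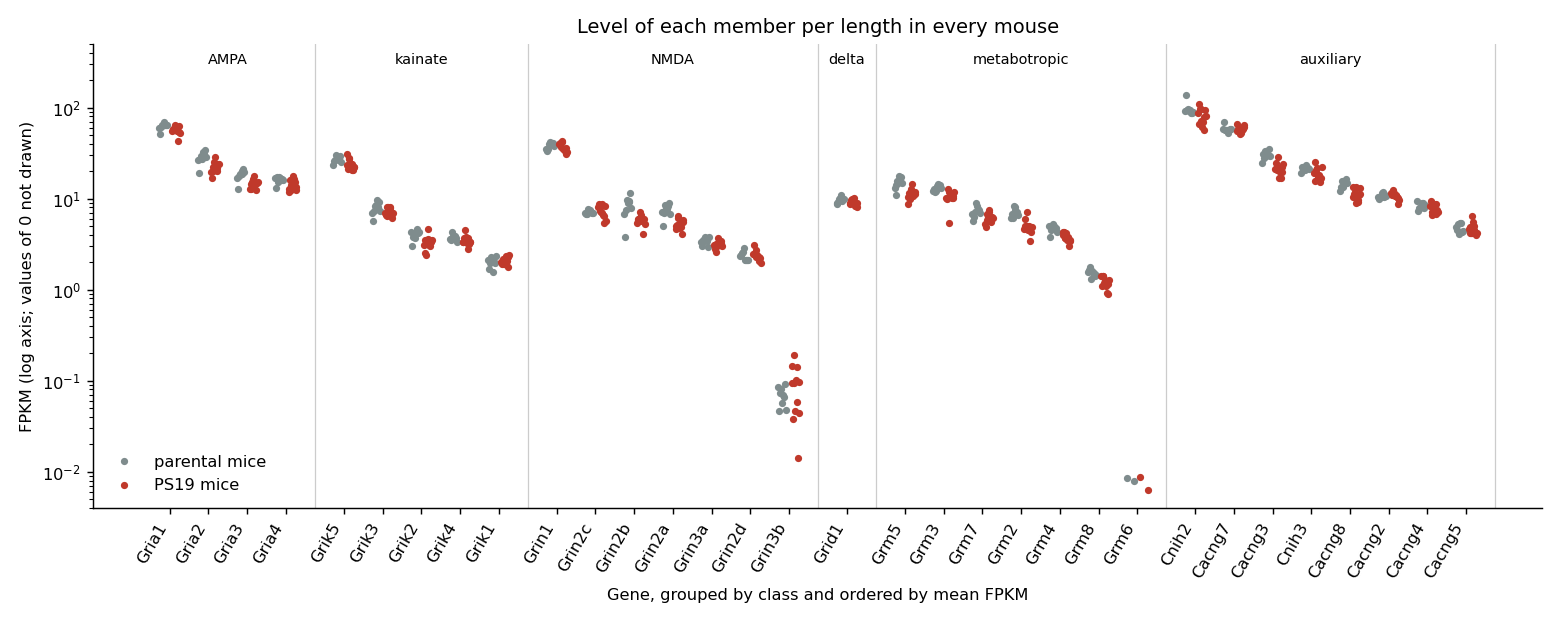
FPKM (log axis) of each member in the 9 parental mice (grey) and the 12 PS19 mice (red), grouped by receptor class and ordered by mean. Cnih2, Gria1 and Cacng7 lie highest, Grin3b lies near 0.08 FPKM and Grm6 is drawn only for the 4 mice with a value above 0.

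Within each class 1 or 2 genes led. Grik5, the high-affinity GluK5 subunit, led the kainate receptors, while Grik3 reached 7.50 ± 1.01 FPKM and Grik1 2.04 ± 0.219 FPKM. Among the metabotropic receptors Grm5 (12.8 ± 2.51 FPKM) and Grm3 (11.6 ± 2.03 FPKM) were highest and did not differ beyond their spread. Grid1, the delta receptor, was at 9.31 ± 0.752 FPKM. The 3 more abundant GluN2 genes lay close together, with Grin2c at 7.21 ± 0.859, Grin2b at 6.87 ± 1.93 and Grin2a at 6.19 ± 1.44 FPKM.

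The RefSeq promoter table (GRCm38.p6) held 22 of the 32 genes. The 250 bases before the start are shown for Gria2 and Grm2, which were lower in PS19 mice, and for Grin1 and Cnih2, which lead their classes and were not called in the comparison of all PS19 with all parental mice. Capitals mark GGGCGG on either strand, the GC box. Gria2 lies at chr3:80802836-80803085 (minus strand), Grm2 at chr9:106656110-106656359 (minus), Grin1 at chr2:25319188-25319437 (minus) and Cnih2 at chr19:5098522-5098771 (minus).
Gria2: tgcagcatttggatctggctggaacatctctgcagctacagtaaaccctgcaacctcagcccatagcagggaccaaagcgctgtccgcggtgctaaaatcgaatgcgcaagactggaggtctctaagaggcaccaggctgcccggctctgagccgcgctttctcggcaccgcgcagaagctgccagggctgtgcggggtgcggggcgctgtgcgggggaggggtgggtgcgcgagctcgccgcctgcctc
Grm2: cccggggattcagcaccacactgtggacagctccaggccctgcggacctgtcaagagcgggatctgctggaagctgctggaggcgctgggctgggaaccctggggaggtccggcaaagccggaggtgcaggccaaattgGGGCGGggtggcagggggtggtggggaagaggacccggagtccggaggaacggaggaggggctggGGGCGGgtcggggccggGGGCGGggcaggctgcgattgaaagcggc
Grin1: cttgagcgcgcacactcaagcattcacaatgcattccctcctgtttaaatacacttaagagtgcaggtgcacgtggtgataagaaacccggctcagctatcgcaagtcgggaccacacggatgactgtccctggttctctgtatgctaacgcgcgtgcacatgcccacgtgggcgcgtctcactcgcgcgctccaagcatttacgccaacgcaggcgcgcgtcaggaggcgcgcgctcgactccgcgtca
Cnih2: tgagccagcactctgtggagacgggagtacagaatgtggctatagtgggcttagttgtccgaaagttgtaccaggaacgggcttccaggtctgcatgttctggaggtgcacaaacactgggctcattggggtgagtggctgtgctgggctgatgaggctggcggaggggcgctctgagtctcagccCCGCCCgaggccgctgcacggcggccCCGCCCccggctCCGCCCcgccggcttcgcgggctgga
Grm2 and Cnih2 each held 3 GC boxes and the other two windows held none. Of the 22 promoters 12 (54.5%) held at least 1, against 39.2% of the 20542 promoters of named genes. The members' windows were also richer in G and C, with a median of 62.6% against 54.0% in all, and 3 of the 22 (Grin2d, Cacng8 and Cacng3) started over 1000 bases from the GENCODE start. The GC box was in 4 of the 9 promoters whose gene was lower in PS19 mice and in 8 of the 12 whose gene was tested and not called. The cAMP response element TGACGTCA was in 0 of 22 (1.91% of all promoters) and the AP-1 motif TGANTCA, which reads the same on both strands, was in 3 of 22 (6.48% of all). These are matches of letters and no evidence of binding.

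To ask how the set differed between PS19 and parental mice, all 21 mice were fitted with the APOE line as a term by edgeR's quasi-likelihood test, and a gene was called at an adjusted p under 0.05. Of the 31 members tested, 14 were called and all 14 were lower in PS19 mice, where 11.0% of the 20539 genes tested were called lower. In either direction 23.9% of genes were called. No member was called higher, and none reached 2-fold, which 2.63% of genes did with a call. The median log2 fold change of the members was -0.16, that of all genes was -0.0039, and 25 of 31 members were below 0, as were 50.8% of all genes. The calls covered 6 of 6 tested metabotropic receptors, 3 of 4 AMPA subunits, 2 of 7 NMDA subunits, 1 of 5 kainate subunits and 2 of 8 auxiliary subunits. In no member did the 12 PS19 mice and the 9 parental mice separate fully, with every PS19 mouse lower, which held for 0.182% of expressed genes.

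Among the NMDA receptor genes, the subunits GluN2A and GluN2B were lower while the obligatory subunit was not. Grin2a ranged from 106 to 174 CPM in parental mice (median 144) and from 80.9 to 128 CPM in PS19 mice (median 100.1). Of the 12 PS19 mice 9 were below every parental mouse. Grin2a fell to 0.710 of its parental level (log2 -0.50 ± 0.08 SE, edgeR adjusted p = 0.000114). Grin2b ranged from 113 to 305 CPM in parental mice (median 225) and from 113 to 196 CPM in PS19 mice (median 158). The lowest parental mouse was E2H 2 at 113 CPM, and the next lowest was E2H 1 at 181 CPM. Grin2b fell to 0.716 of its parental level (log2 -0.48 ± 0.11, edgeR adjusted p = 0.00236). Without E2H 2 and PS/E3H 1, the lowest parental and the highest PS19 mouse for Grin2b, the log2 change was -0.60.

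Grin1 showed no such difference when the lines were joined. It ranged from 372 to 430 CPM in parental mice (median 407) and from 329 to 467 CPM in PS19 mice (median 380), with a log2 fold change of -0.05 ± 0.06 (edgeR adjusted p = 0.560). Grin2c (log2 0.03 ± 0.07) and Grin2d (0.03 ± 0.06), the subunits of astrocytes and cerebellar granule cells and of interneurons respectively, were not called. Grin3a, a subunit that lowers calcium entry, had a log2 fold change of -0.12 ± 0.05 and also did not pass. Grin3b, at under 1 CPM in every mouse, gave an imprecise value of 0.34 ± 0.33.

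Among the AMPA receptor genes 3 of 4 fell. Gria2 encodes GluA2, the subunit that makes the channel impermeable to calcium after RNA editing. It ranged from 351 to 575 CPM in parental mice (median 483) and from 296 to 459 CPM in PS19 mice (median 358), and all 12 PS19 mice were below the parental mean. Its log2 fold change was -0.35 ± 0.06 (edgeR adjusted p = 0.000358). Gria3, which forms receptors with GluA2, ranged from 151 to 223 CPM in parental and from 136 to 184 CPM in PS19 mice, and fell by 0.31 ± 0.06 on the log2 scale (edgeR adjusted p = 0.000317). The fall of Gria4, the GluA4 subunit common in interneurons, was the smallest called (log2 -0.16 ± 0.06, edgeR adjusted p = 0.0479) and stayed called in 7 of the 21 fits that left out 1 mouse. Gria1, the highest of the 4 in FPKM but not in mean CPM over all mice, was not called (log2 -0.13 ± 0.06, edgeR adjusted p = 0.105). It ranged from 366 to 440 CPM in parental and from 278 to 432 CPM in PS19 mice.

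Of the kainate receptor genes, Grik2 (GluK2) fell. It ranged from 48.0 to 65.4 CPM in parental mice (median 59.98) and from 35.9 to 64.1 CPM in PS19 mice (median 48.6), a log2 fold change of -0.29 ± 0.07 (edgeR adjusted p = 0.00426). The highest PS19 mouse, PS/E3H 3, was within the parental range. Grik5 (-0.16 ± 0.07), Grik3 (-0.11 ± 0.06), Grik4 (-0.10 ± 0.06) and Grik1 (0.06 ± 0.07) were not called. Grid1, a receptor that bridges the synapse rather than acting as an ordinary channel, had a log2 fold change of -0.09 ± 0.04 and was not called (edgeR adjusted p = 0.127).

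Every tested metabotropic receptor fell, across all 3 groups of the family. Grm5, the group I receptor that couples to phospholipase C, ranged from 132 to 190 CPM in parental mice (median 166) and from 99.3 to 153 CPM in PS19 mice (median 121), and had the smallest p of the set (log2 -0.39 ± 0.06, edgeR adjusted p = 2.7e-05). Of the group II receptors, which lower cyclic AMP, Grm2 ranged from 32.4 to 43.3 CPM in parental and from 18.4 to 39.1 CPM in PS19 mice, where 10 of 12 were below every parental mouse. The 2 above were PS/E3H 1 at 39.1 CPM and PS/E2H 2 at 32.7 CPM. Grm2 had the largest fall of the set (log2 -0.50 ± 0.08, edgeR adjusted p = 0.000128). Grm3, the group II receptor that astrocytes also make, ranged from 39.4 to 46.6 CPM in parental and from 18.2 to 42.0 CPM in PS19 mice (log2 -0.33 ± 0.09, edgeR adjusted p = 0.0106). Its lowest mouse, PS/E2H 4 at 18.2 CPM, lay far under the next at 33.3 CPM.

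The group III receptors, which act largely as presynaptic brakes on release, fell by 0.23 to 0.35 on the log2 scale. Grm4 ranged from 27.2 to 32.5 CPM in parental and from 20.04 to 28.8 CPM in PS19 mice, with 10 of 12 PS19 mice below every parental mouse (log2 -0.31 ± 0.05, edgeR adjusted p = 0.000238). Grm8 ranged from 13.98 to 19.3 CPM in parental and from 9.86 to 15.6 CPM in PS19 mice (log2 -0.35 ± 0.07, edgeR adjusted p = 0.000442). Grm7 ranged from 39.9 to 53.5 CPM in parental and from 32.3 to 46.7 CPM in PS19 mice (log2 -0.23 ± 0.06, edgeR adjusted p = 0.00365). In all 3 the ranges overlapped.

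Among the auxiliary subunits, 2 TARPs fell and the other four did not pass. Cacng3 (gamma-3), a TARP of cortical neurons, ranged from 74.7 to 104 CPM in parental mice (median 88.1) and from 50.05 to 88.0 CPM in PS19 mice (median 63.9). In 10 of 12 PS19 mice it was below every parental mouse, and PS/E3H 1 was the highest PS19 mouse. Its log2 fold change was -0.47 ± 0.09 (edgeR adjusted p = 0.000307). Cacng8 (gamma-8), the main TARP of the hippocampus, ranged from 31.0 to 41.1 CPM in parental and from 22.0 to 35.5 CPM in PS19 mice (log2 -0.37 ± 0.08, edgeR adjusted p = 0.0022). Cacng2 (stargazin) had a log2 fold change of 0.00 ± 0.04, Cacng7 0.00 ± 0.05, Cacng5 -0.01 ± 0.06 and Cacng4 -0.10 ± 0.07. The cornichon Cnih2 ranged from 128 to 224 CPM in parental mice, with E2H 2 at 224 CPM, and from 83.9 to 168 CPM in PS19 mice. Without E2H 2 the log2 fold change of Cnih2 was -0.18. Neither Cnih2 (log2 -0.25 ± 0.11 with all mice, edgeR adjusted p = 0.0970) nor Cnih3 (-0.19 ± 0.08, adjusted p = 0.0894) was called.

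**Figure D2:**
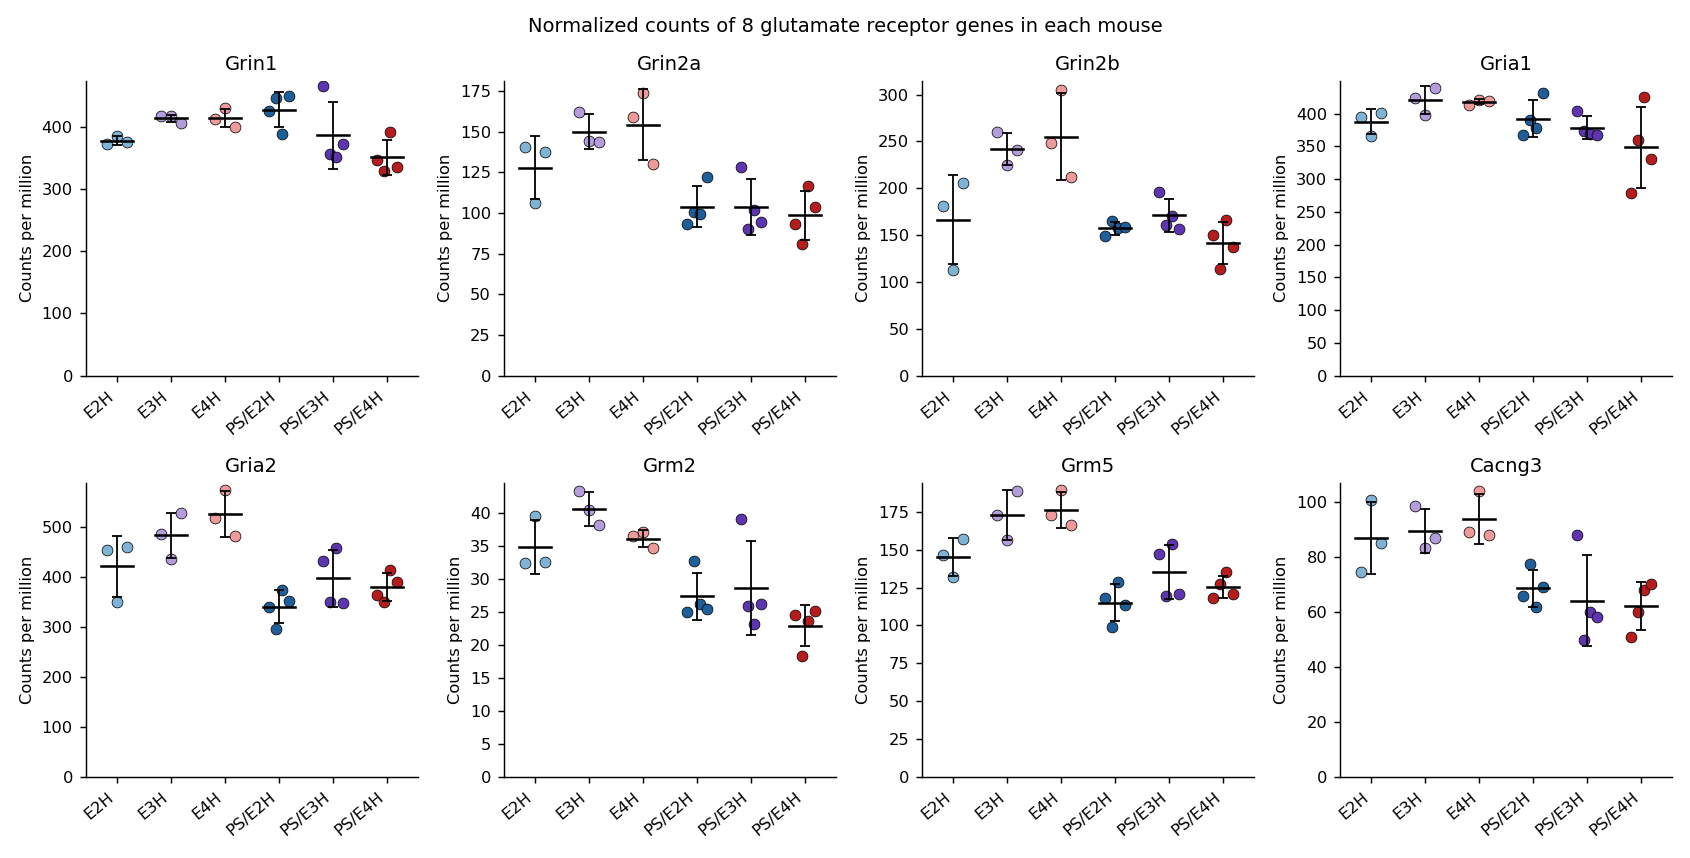
CPM (counts scaled to the normalized library size) of 8 members in every mouse, by group, where points are mice, the bar is the group mean and the whisker is 1 SD (n = 3 parental, n = 4 PS19 per line). Grin2a, Grm2, Grm5 and Cacng3 lie lower in the PS19 groups, while Grin1 and Gria1 overlap between PS19 and parental mice; PS/E3H 1 is the top PS19 point of Grin1, Grin2a, Grin2b, Grm2 and Cacng3.

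Without E2H 2 and PS/E3H 1, a choice made after the data were seen, 17 members were called lower, the 14 above plus Gria1 (log2 -0.17), Grik3 (-0.16) and Grik5 (-0.19), where 13.9% of 20665 genes were called lower. By the centred member median, E2H 2 was the lowest parental mouse (0.0272) and PS/E3H 1 the highest PS19 mouse (0.0766). Leaving them out was bound to widen the difference by that measure, so the higher count is no added support. With the side of the depth gap as a term 10 of the 14 were called, and Gria4, Grik2, Grin2b and Grm3 were not, where 5.16% of genes were called lower. In the 10 mice above the gap (7 parental, 3 PS19) 9 members were called lower, where 3.87% of genes were, and these held no PS/E4H mouse. In the 11 mice below it (2 parental, 9 PS19) none was, with 11 of all 22484 genes called lower, and the median of the members was -0.08. The parental mice there were E2H 2, which stood apart, and E3H 2, and no E4H mouse was among them.

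The APOE4 line held most of the calls within a line. In PS/E4H against E4H mice 16 members fell and none rose, where 6.98% of 20844 genes were called lower, and the median member changed by -0.27. The 16 were Gria2, Gria3, Grik2, Grik3, Grik5, Grin1, Grin2a, Grin2b, Grm2, Grm3, Grm4, Grm5, Grm7, Grm8, Cacng3 and Cacng8. In 17 of 31 members every PS/E4H mouse was below every E4H mouse, which held for 14.6% of 18699 expressed genes. Leaving out E4H 2, the mouse with the highest Grin2b, Gria2, Gria3, Grin2a and Cacng3 of its group, left 7 calls, and leaving out E4H 1 left 10. The share of all genes called lower was then 1.67% and 2.5%. Among single members, Grm8 stayed called in 1 of the 7 fits that left out 1 mouse and Grm7 in 4.

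Grin2b changed most in that line. It was 248, 305 and 212 CPM in E4H mice and 150.4, 113, 166 and 137 CPM in PS/E4H mice, and the groups did not overlap. Its log2 fold change was -0.85 ± 0.14 (edgeR adjusted p = 0.00398), between -0.96 and -0.70 with any 1 mouse left out. Grin2a was 159, 174 and 131 CPM in E4H and 93.3, 80.9, 117 and 104 CPM in PS/E4H mice (log2 -0.65 ± 0.13, edgeR adjusted p = 0.00837). Grm2 was 36.5, 37.1 and 34.6 CPM in E4H and 24.5, 18.4, 23.7 and 25.2 CPM in PS/E4H mice, again without overlap (log2 -0.66 ± 0.11, edgeR adjusted p = 0.00381). Grin1, which was not called across the lines, was 413, 430 and 400.5 CPM in E4H and 347, 329, 392.3 and 335 CPM in PS/E4H mice. Its fall of 0.25 ± 0.07 on the log2 scale was just inside the threshold (edgeR adjusted p = 0.0440) and stayed called in 1 of the 7 fits without 1 mouse.

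In the APOE3 line 3 members fell, where 2.02% of 21251 genes were called lower, and the median member changed by -0.16. Grin2b was 259.7, 225 and 241 CPM in E3H mice and 196, 161, 171 and 156 CPM in PS/E3H mice, without overlap (log2 -0.51 ± 0.09, edgeR adjusted p = 0.0132). Grin2a was 162, 144 and 144 CPM in E3H and 128, 90.3, 102 and 94.8 CPM in PS/E3H mice, also without overlap (log2 -0.54 ± 0.11, edgeR adjusted p = 0.0255). Grm4 was 31.5, 32.0 and 31.4 CPM in E3H and 24.4, 26.8, 23.8 and 22.6 CPM in PS/E3H mice (log2 -0.38 ± 0.08, edgeR adjusted p = 0.0261). In 6 of 31 members every PS/E3H mouse was below every E3H mouse, against 9.46% of expressed genes.

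The APOE3 count changed with single mice, PS/E3H 1 above all. Without it 14 members were called lower, where 5.68% of 20766 genes were, and the 14 held Gria1, Gria3, Grik5, Grin1, Cnih2 and Cnih3 besides the 3 above, Grm2, Grm3, Grm5, Cacng3 and Cacng8. Without E3H 1 or E3H 3 none was called, where 0.0369% and 0.345% of genes were called lower. Without E3H 2, PS/E3H 3 or PS/E3H 4 the count was 1, where 0.264%, 1.33% and 0.56% of genes were. DESeq2 called 9 members on all 7 mice and 4.94% of genes lower.

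In the APOE2 line no member was called by edgeR, DESeq2 or limma, and 8 had an unadjusted p under 0.05 by edgeR, all with values below 0, against 10.7% of all genes. Here 0.752% of 20617 genes were called at all and 0.0825% were called lower. The median member differed by -0.14 and 21 of 31 members were below 0, as were 52.7% of all genes. Grm5 was 147, 132 and 157 CPM in E2H and 118, 99.3, 129 and 113 CPM in PS/E2H mice (log2 -0.34 ± 0.10, edgeR adjusted p = 0.224). Grin1 was the other way, at 372, 386 and 376 CPM in E2H and 425, 447, 389 and 449.8 CPM in PS/E2H mice, with every PS/E2H mouse higher (log2 0.17 ± 0.08, edgeR adjusted p = 0.492). Grin2b was 181, 113 and 205 CPM in E2H and 149, 165, 157 and 158 CPM in PS/E2H mice (log2 -0.09 ± 0.17), so that the low E2H 2 library lay below all 4 PS/E2H mice. Without E2H 2 the log2 value was -0.30 (edgeR adjusted p = 0.195). Groups without overlap with every PS/E2H mouse lower were found for 4 of 31 members, against 5.21% of expressed genes, and groups with every PS/E2H mouse higher for 2, Grin1 and Cacng2, against 7.01%.

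**Figure D3:**
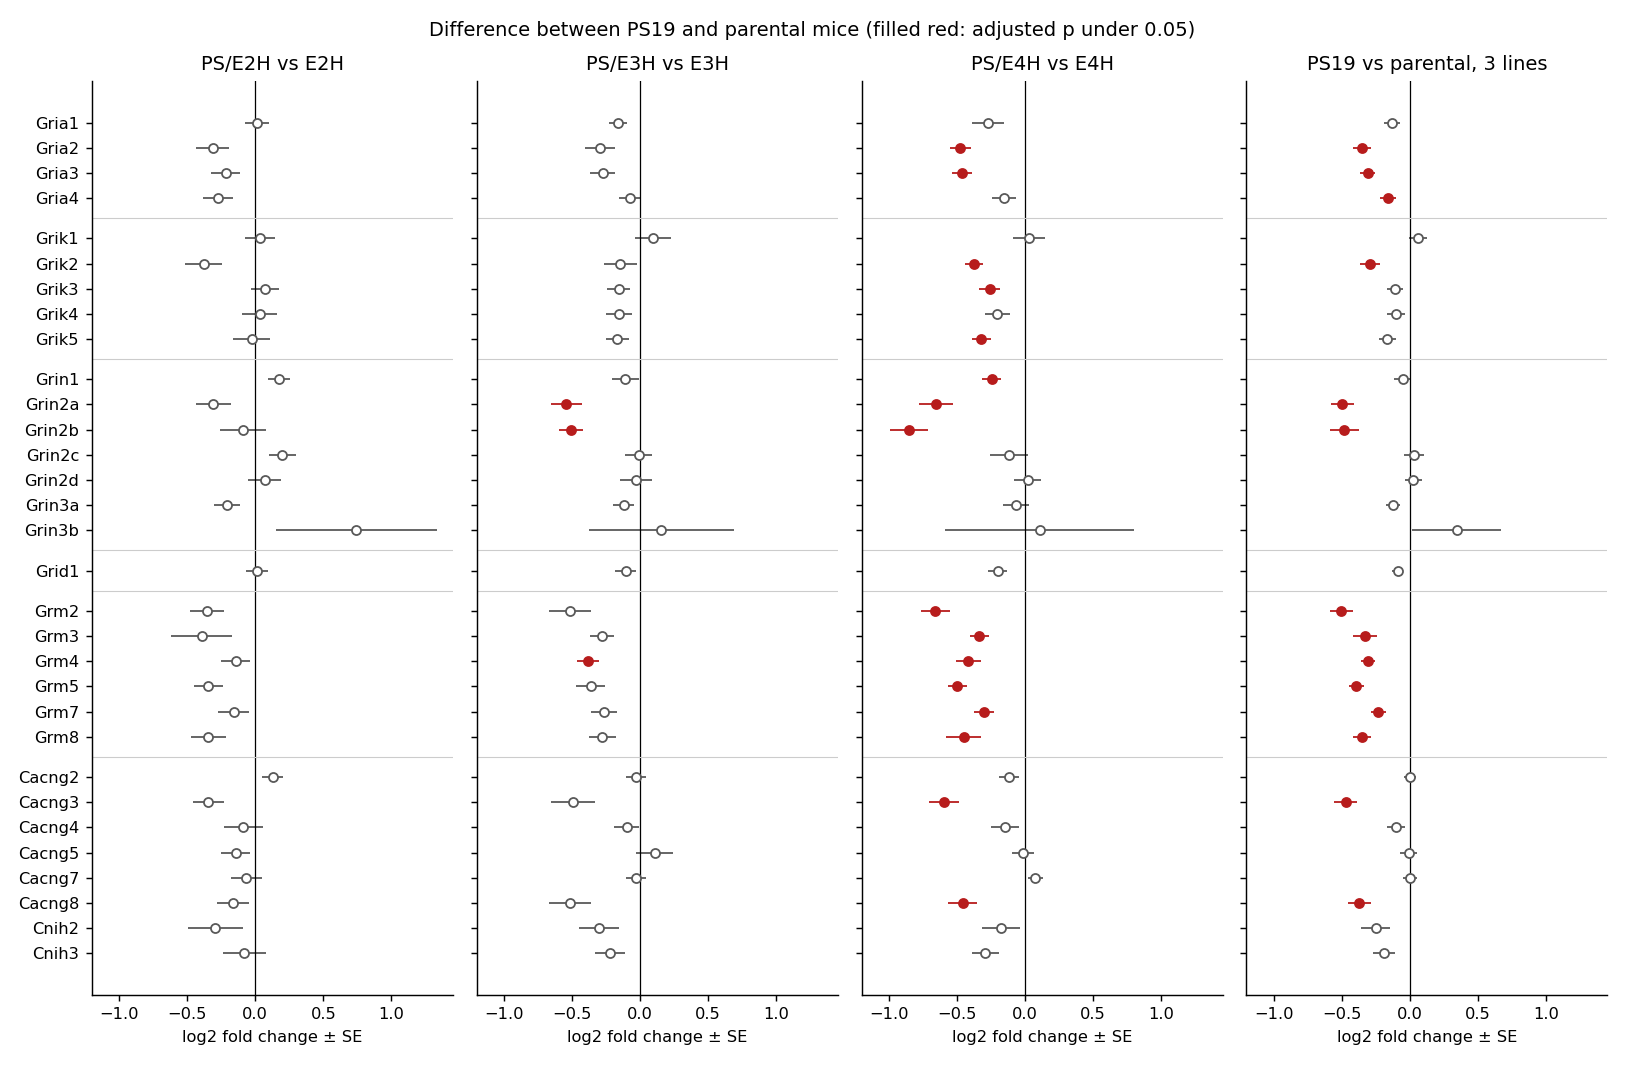
Log2 fold change ± SE of the 31 tested members between PS19 and parental mice in the APOE2, APOE3 and APOE4 lines and in all 3 lines together, with filled red points for an adjusted p under 0.05 in edgeR's quasi-likelihood test. The filled points number 0, 3, 16 and 14 from left to right and all lie below 0.

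Whether the tau comparison differed between the APOE lines was tested directly. In the fit of all 6 groups no member had a tau effect that differed by line at an adjusted p under 0.05 in edgeR, DESeq2 or limma, and 0% of the 22863 genes did in edgeR. At an unadjusted p under 0.05 there were 3 members, Grin1, Grin2b and Grik3, and 7.59% of all genes (edgeR adjusted p of 0.506, 0.519 and 0.653 in that order). The tau difference of Grin2b in the APOE4 line was lower than that in the APOE2 line by a log2 value of -0.77 ± 0.22, and that of Grin1 by -0.42 ± 0.12 (edgeR adjusted p = 0.227 and 0.223). The calls in the APOE4 line and their absence in the APOE2 line were therefore not shown to differ. Without E2H 2 the test over all lines called no member either.

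The make-up of the GluN2 subunits, given as each gene's share of the summed FPKM of Grin2a to Grin2d and without a test, moved with these changes. Grin2a took 29.5% ± 1.13 (SD, n = 9) in parental and 25.3% ± 2.46 (n = 12) in PS19 mice, and Grin2b took 32.3% ± 4.88 and 28.02% ± 1.84. Grin2c, whose own level did not pass the test, took 28.7% ± 3.80 and 35.05% ± 3.10. Grin2b led in E3H (33.99% ± 0.958) and E4H (35.5% ± 2.79) mice. Grin2c led in all 3 PS19 groups, at 37.05% ± 2.55 in PS/E2H, 34.1% ± 3.69 in PS/E3H and 34.02% ± 2.66 in PS/E4H mice. These leads are in FPKM and depend on the transcript lengths used there. In counts Grin2c averaged 39.5 CPM over all mice, against 184.4 CPM for Grin2b and 120.2 CPM for Grin2a. In E2H mice Grin2c took 32.0% ± 4.88, a mean that rested on E2H 2. It took 37.6% in E2H 2, 29.8% in E2H 1 and 28.6% in E2H 3, and without E2H 2 its mean of 29.2% lay under those of Grin2a and Grin2b (30.2% each). The ratio of Grin1 to the summed GluN2 genes was 1.54 ± 0.14 in parental and 1.78 ± 0.129 in PS19 mice. Among the AMPA subunits Gria2 took 22.6% ± 1.52 of the summed FPKM in parental and 20.5% ± 1.89 in PS19 mice.

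**Figure D4:**
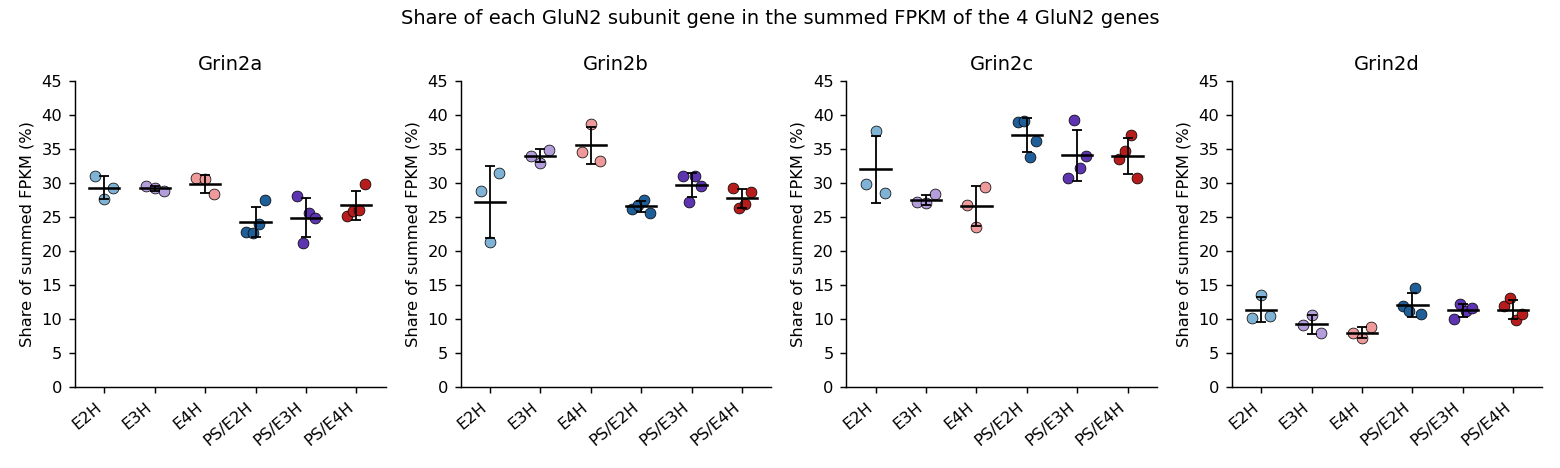
Share (%) of each GluN2 gene in the summed FPKM of the 4 GluN2 genes, with 1 point per mouse, the bar for the group mean and the whisker for 1 SD. Grin2a lies between 24.3% and 26.8% on average in the PS19 groups and between 29.2% and 29.9% in the parental groups, while Grin2c lies between 34.02% and 37.05% in the PS19 groups.

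The APOE allele alone moved none of the members past the threshold in edgeR. In E2H against E3H mice 0.178% of genes were called and no member was by edgeR, with 4 members at an unadjusted p under 0.05 (14.1% of genes). DESeq2 called 1, Grik3, which was 67.1, 60.1 and 70.9 CPM in E2H and 80.5, 78.2 and 91.5 CPM in E3H mice (edgeR log2 -0.34, adjusted p = 0.232, and -0.27 without E2H 2). In E4H against E3H (0.162% of genes called) and E4H against E2H (0.216%) no member was called by edgeR, DESeq2 or limma, with 1 and 9 members at an unadjusted p under 0.05 (6.67% and 12.4% of genes). Among the 9 was Grin2b, higher in E4H than in E2H by a log2 value of 0.62 (edgeR adjusted p = 0.363), and by 0.40 without the E2H 2 library (adjusted p = 0.347). Between the PS19 groups no member was called by these 3 tools either: PS/E2H against PS/E3H (0.113% of genes called), PS/E4H against PS/E3H (0.0197% of genes) and PS/E4H against PS/E2H (0.119%) had 2, 5 and 8 members at an unadjusted p under 0.05 (11.7%, 6.51% and 12.3% of genes). Grin1 had the smallest of these, at 347, 329, 392.3 and 335 CPM in PS/E4H and 425, 447, 389 and 449.8 CPM in PS/E2H mice (log2 -0.28, edgeR adjusted p = 0.282).

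The genes that work with these receptors were counted from 4 lists. Across the lines 11.0% of all genes tested were called lower in PS19 mice and 12.9% higher. Of 14 companions of AMPA and kainate receptors 10 fell and none rose in PS19 mice across the lines, with a median of -0.27. Shisa7 (log2 -0.45 ± 0.08) and Prrt1 (-0.38 ± 0.08), transmembrane proteins of the AMPA receptor complex, and Nptxr (-0.43 ± 0.10), the neuronal pentraxin receptor, fell most. Of 20 postsynaptic scaffolds and kinases 13 fell, with Shank2 first (-0.46 ± 0.07, edgeR adjusted p = 6.65e-05), and 1 rose, Homer3 (0.26 ± 0.09), which is named after its value was seen. Of 7 genes of metabotropic receptor signalling 2 fell, Plcb1 (-0.23 ± 0.06), the phospholipase C that acts downstream of Grm5, and Elfn2 (-0.21 ± 0.06), both named after their values were seen.

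The list of transmitter supply and uptake moved both ways, with 4 of 10 genes higher and 3 lower. The 4 that rose, all abundant in astrocytes, were Glul (log2 0.49 ± 0.05, edgeR adjusted p = 5.69e-07), glutamine synthetase, Slc1a3 (0.39 ± 0.05) and Slc1a2 (0.26 ± 0.04), the glial glutamate transporters, and Glud1 (0.26 ± 0.05), glutamate dehydrogenase. Among those that fell were Slc17a7 (-0.26 ± 0.09), the vesicular transporter of cortical excitatory neurons, and Srr (-0.15 ± 0.04), which makes the NMDA receptor co-agonist D-serine. In the APOE4 line the counts were 8 lower of 14, 12 lower of 20, 1 lower of 7, and 4 higher and 3 lower of 10. Of all genes tested in that line 6.98% were called lower and 8.62% higher.

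**Figure D5:**
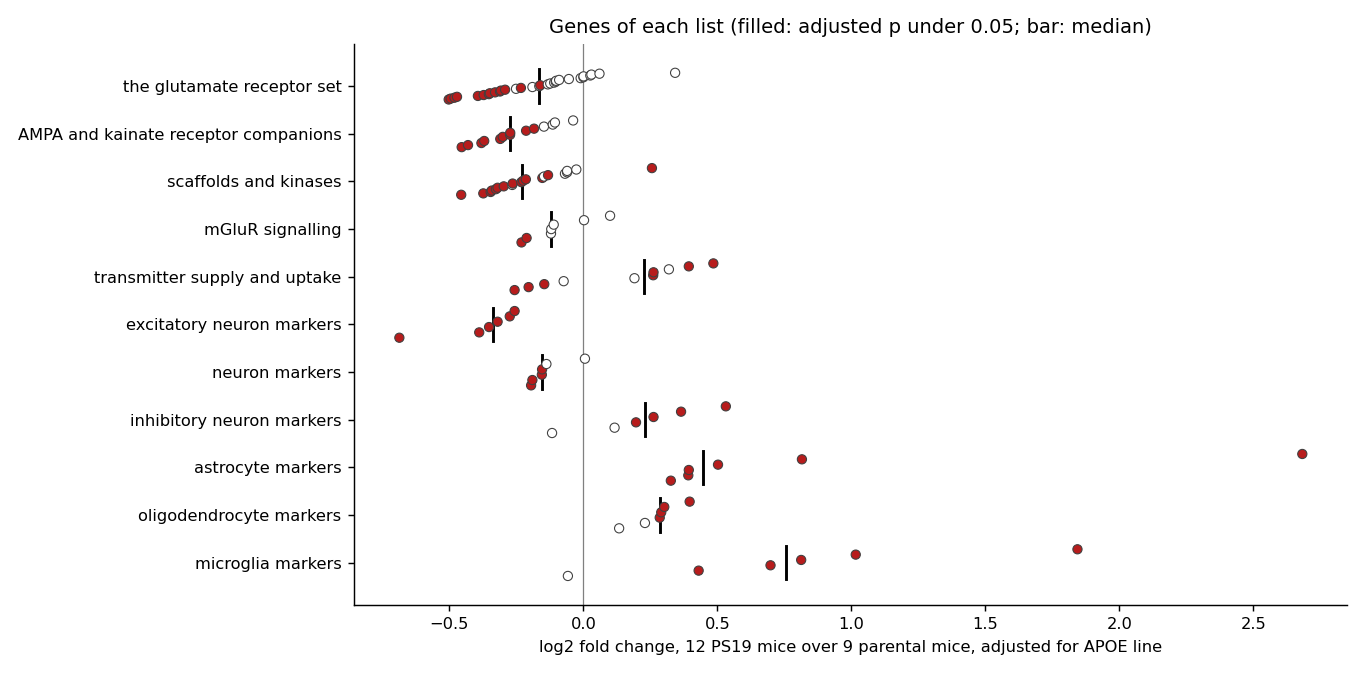
Log2 fold change between the 12 PS19 and the 9 parental mice for every tested gene of the receptor set, of the 4 lists of companion genes and of 6 lists of cell type markers, with filled points for an adjusted p under 0.05 and a bar at each median. The medians lie at -0.16 for the receptor set, -0.34 for excitatory neuron markers, 0.23 for inhibitory neuron markers and 0.45 for astrocyte markers.

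Markers of the cells that carry the receptors moved alongside, and their part in the results was not tested. The counts below stand beside 11.0% of all genes called lower and 12.9% called higher. All 6 excitatory neuron markers fell (median log2 -0.34), of which Slc17a7 and Camk2a were also in the lists above, and their summed level was 2887 to 3756 CPM in parental and 2296 to 3606 CPM in PS19 mice, with PS/E3H 1 the highest of the PS19 mice. Neurod6, a marker of forebrain pyramidal neurons, fell most (-0.69 ± 0.11). Of 6 general neuron markers 4 fell (median -0.15, summed level 5968 to 6456 CPM in parental and 5283 to 6341 CPM in PS19 mice), and of 6 inhibitory neuron markers 4 rose (median 0.23, 927 to 1042 CPM and 1006 to 1257 CPM). All 6 astrocyte markers rose (median 0.45), with summed levels of 1053 to 1354 CPM in parental and 2020 to 3903 CPM in PS19 mice. Of these Slc1a3 was also in the lists above. Gfap alone was 197 to 336 CPM in parental and 968 to 2482 CPM in PS19 mice. Among microglia markers 5 of 6 rose (median 0.76, 247 to 326 CPM and 380.0 to 632 CPM). Of 6 oligodendrocyte markers 4 rose (median 0.29, 4744 to 7027 CPM and 6055 to 9129 CPM). Markers of other tissue parts and cells had fewer calls. In hippocampus 1 of 6 was called (C1ql2, lower), though the median of the 6 was -0.35. In cerebellum 1 of 5 tested was called (Calb1, lower). Called higher were 2 of 4 for endothelium, 1 of 4 for oligodendrocyte precursors and 1 of 4 for choroid plexus. None was called for striatum, thalamus, olfactory bulb or pituitary, of which the last had 1 of 4 tested. Every marker of the excitatory, general and inhibitory neuron, astrocyte, microglia and oligodendrocyte lists was detected in both parental and PS19 mice.

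Neighbouring and overlapping genes bear on a few members. The strand used in counting is not given in the sources used here. Overlapped by a gene on the opposite strand are Grin1 (9174 counts in Grin1os over all mice against 552548 in Grin1), Cnih2 (21926 in Yif1a against 182383) and Grin3b (99333 in Tmem259 against 413). Grin2d is overlapped by Kdelr1 (76737 against 23989) and Grm7 by Gm20387 (2241 against 59171). The counts of these members are less certain. On chromosome 7, which carries Apoe, lie Grik5 (5.3 Mb from it), Cacng7 and Cacng8 (16.3 Mb each), Grin2d (26.1 Mb), Grm5 (67.9 Mb) and Cacng3 (103 Mb).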

How the data were processed

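Forebrain RNA of 21 mice was analysed, grouped by the labels. According to the study's methods, stranded poly(A) libraries were read as pairs, trimmed with Cutadapt, mapped with HISAT2 and assembled with StringTie (versions not given in the sources used here; build GRCm38.p5 in the submitters' processing notes). The authors deposited counts, whole numbers per gene without normalization, and FPKM, which scales fragments by transcript length and library size. How the counts were derived is not stated. All 42 table columns mapped to a mouse, and 0 were left unmapped. Gene symbols and positions came from GENCODE M21 (GRCm38), and promoters from RefSeq.

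Counts were TMM-normalized, filtered by filterByExpr (minimum count 10) and tested by edgeR 4.0.16 (quasi-likelihood F test, R 4.3.3) over all genes with Benjamini-Hochberg adjustment. The study used DESeq2 with a 2-fold limit. The SE is the log2 fold change divided by the root of F. CPM used TMM library sizes. A gene counts as expressed for the group overlaps at 0.5 CPM or more in 3 or more mice. Members and gene lists were chosen with earlier results of these data known. Genes given mouse by mouse or by range were at most 14 members called in a tau comparison, with the smallest p across lines, any member called between APOE groups or in the interaction, and the most abundant member of each class; from the companion lists, the 4 called genes with the largest change in each direction were named, except for 1 gene that is not reported here. Alternatives were other scalings, no filter, DESeq2 1.42.0, limma 3.58.1 on log2(FPKM + 0.1) and log2(FPKM + 1), 1 mouse left out, a replicate block and all 6 groups in 1 fit. On simulated counts edgeR gave the simulated direction for all or nearly all changed genes, whether called or not. Depth was 59265459 to 75932183 counts; intervals and floors from counting alone were not used, since the tests rest on the spread between mice.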

Additional observations from a re-analysis of the deposited data

Results flagged for a closer look

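In groups of 4, a mouse was picked out when its gap to the nearest other mouse took up more of the group's range than the 95% limit of Dixon's test allows. Of 66 groups of values examined 5 were picked out, and chance picks about 1 in 20. In PS/E3H 1, Cacng8 was 34.6 CPM against 22.0, 22.8 and 23.5 CPM in the other PS/E3H mice, and Grm3 was 40.5 CPM against 34.8, 34.1 and 34.3 CPM. In PS/E2H 2, Grm2 was 32.7 CPM against 25.01, 26.1 and 25.5 CPM, and Grm8 was 12.3 CPM against 15.6, 15.1 and 15.4 CPM. The PS/E2H 1 library held 70384215 counts against 59265459, 60655306 and 60194609 in its group. No member was picked out for a tau difference that varied with the APOE line, as none passed the adjusted threshold in the test of that difference.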

How the results depend on the processing

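No member reached 2-fold, so 0 were called in each tau comparison under that limit. Counts of called members that moved by more than 1.5 times were 9 (DESeq2) and 5 (all 6 groups in 1 fit) against 3 in PS/E3H vs E3H, 9 (replicate block) against 16 in PS/E4H vs E4H, and 1 (DESeq2) against 0 in E2H vs E3H. The share of all genes called lower moved too, to 4.94% and 1.7% against 2.02% in PS/E3H vs E3H and to 1.86% against 6.98% in PS/E4H vs E4H. Across all lines the other scalings, no filter, DESeq2, limma and the replicate block gave 12 to 15 calls, and the fits chosen after the data were seen gave 0 to 17. With 1 mouse left out the counts ranged from 13 to 16 across the lines, from 7 to 16 in the APOE4 line, from 0 to 14 in the APOE3 line, and were 0 in the APOE2 line and in every APOE comparison.

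Chosen after the data were seen, the mice above the gap in depth gave 9 calls, and those below gave 0, a median of -0.0781 and a log2 change of 0.0279 for Grin2b, the 1 sign change among 750 values of single members. The mice below held 2 parental mice, E2H 2 and E3H 2, and no E4H mouse, and those above no PS/E4H mouse, and the cause was not tested. Of 177 recomputed medians 170 moved by less than the SD between mice (0.0566). The others were E2H vs E3H at -0.1181 with library size alone and at -0.1532 and -0.1414 by limma with pseudocounts of 0.1 and 1, E4H vs E2H at 0.1194 and PS/E2H vs PS/E3H at -0.0119 by limma with 0.1, and PS/E2H vs PS/E3H with 1 mouse left out, between -0.0034 and 0.1130.

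The replicate numbers did not pair the mice: correlations of same-numbered mice were -0.12 to 0.095, and 4 of 21 mice matched their own number best. The replicate block gave 12 calls across the lines and 9 in PS/E4H vs E4H. The median log2 fold change of all genes was at most 0.0926 in size under the alternatives other than leaving out 1 mouse. Depth limits Grin3b, which stayed under 1 CPM.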
